A study of Mus musculus with 4 samples.

Results

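Interferon-stimulated genes and the receptors for type I interferons and interferon-γ were examined in mouse CD4 T cells kept under TH17 conditions with or without a BET bromodomain inhibitor. The set was a list of 55 genes. It was applied to the deposited table by keeping rows annotated to exactly 1 gene symbol and, where a gene had several, using its brightest one. This left 39 of the 55 genes among 14860 named genes. Of the other 16, 10 stood only in rows naming several genes (Ifit3, Oas1a, Oas3, Eif2ak2, Ifitm1, Gbp6, Igtp, Irgm2, Iigp1 and Ifi47), and 6 were not analysed here (Ifitm2, Isg15, Usp18, Nlrc5, Ifi44 and Xaf1).

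The JQ1 group was 2 samples of C57BL/6 splenic naive CD4 T cells, over 90% pure per the labels, that received 150 nM JQ1, a BET inhibitor that keeps these chromatin readers from binding acetylated histones. The DMSO group was 2 samples of the same cells that received the solvent. Both groups were stimulated with beads against CD3 and CD28 in medium with IL-6, IL-23 and TGF-β1 and with antibodies blocking IFN-γ and IL-4. The controls thus received the antibody against interferon-γ too, and how far it blocked interferon-γ was not measured here. All 4 samples were labelled 48 hours, although the treatment text also speaks of 4 days of stimulation. RNA was read on Affymetrix exon arrays. Whether replicates were separate mice or separate cultures is in no label. The p-values thus measure only how far these samples lie apart, which may be a technical spread, and 2 arrays a group limit the precision.

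Type I interferons bind a receptor made of IFNAR1 and IFNAR2, and the kinases on its tails activate a factor with STAT2 and IRF9 among its subunits that binds interferon-stimulated response elements in promoters. Interferon-γ binds IFNGR1 and IFNGR2 and acts mainly through gamma-activated sequences in promoters. The target genes encode proteins that bind or cut viral RNA, GTPases that attack the membranes around intracellular microbes, and parts of the antigen-processing machinery. Activated T cells both make and sense interferon-γ, and interferon-γ restrains the formation of TH17 cells, which is why such cultures contain an antibody against it.

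With JQ1, 9 of the 39 interferon genes had lower signals at an unadjusted p below 0.05 in limma's moderated test, which is 23.1% of them against 8.26% of all 14860 named genes in that direction. These were Lgals3bp, Gbp7, Bst2, Gbp3, Ifi27, Dtx3l, Irgm1, Parp9 and Gbp5, with folds from 1.30 to 2.12. None of the 39 was higher at that threshold, against 1.72% of all genes. With limma's p-values adjusted for all genes by the Benjamini-Hochberg method, no member passed, where 1 gene of 14860 did (0.00673%). The adjusted p of the 9 genes in limma ranged from 0.213 to 0.476. None of these genes is therefore said to have changed, and the values below describe these arrays.

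The median change of the 39 genes, taken as the log2 signal with JQ1 minus that with DMSO, was -0.25, against -0.086 for all named genes. It was -0.13 after centring of each array on its median, -0.17 after a further quantile normalization and -0.16 after cyclic loess, where the medians of all genes were 0.031, 0.016 and 0.0035. Without DMSO replicate 1 it was -0.16, against -0.055 for all genes. The change was below 0 for 29 of the 39 genes (74.4%), against 66.2% of all genes. Both JQ1 arrays lay below both DMSO arrays for 16 of the 39 (41.0%), against 31.4% of all genes. Both lay above for 2, Ifnar1 and Trim21 (5.13%), against 10.0% of all genes. These counts are as deposited. Under each of the 3 further scalings 12 of the 39 genes lay below. The number above was then 4 after centring or cyclic loess and 5 after quantile normalization. The shares of all genes under these scalings were not taken, so no excess is read from these counts. The median deviation of the 39 genes from their own means was -0.11 and -0.14 on the JQ1 arrays, against 0.20 and 0.030 on the DMSO arrays. The corresponding medians over all genes were -0.054 and -0.036 on the JQ1 arrays, against 0.083 and 0.015 on the DMSO arrays. DMSO replicate 1 was thus the highest array for both sets of genes.

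**Figure D1:**
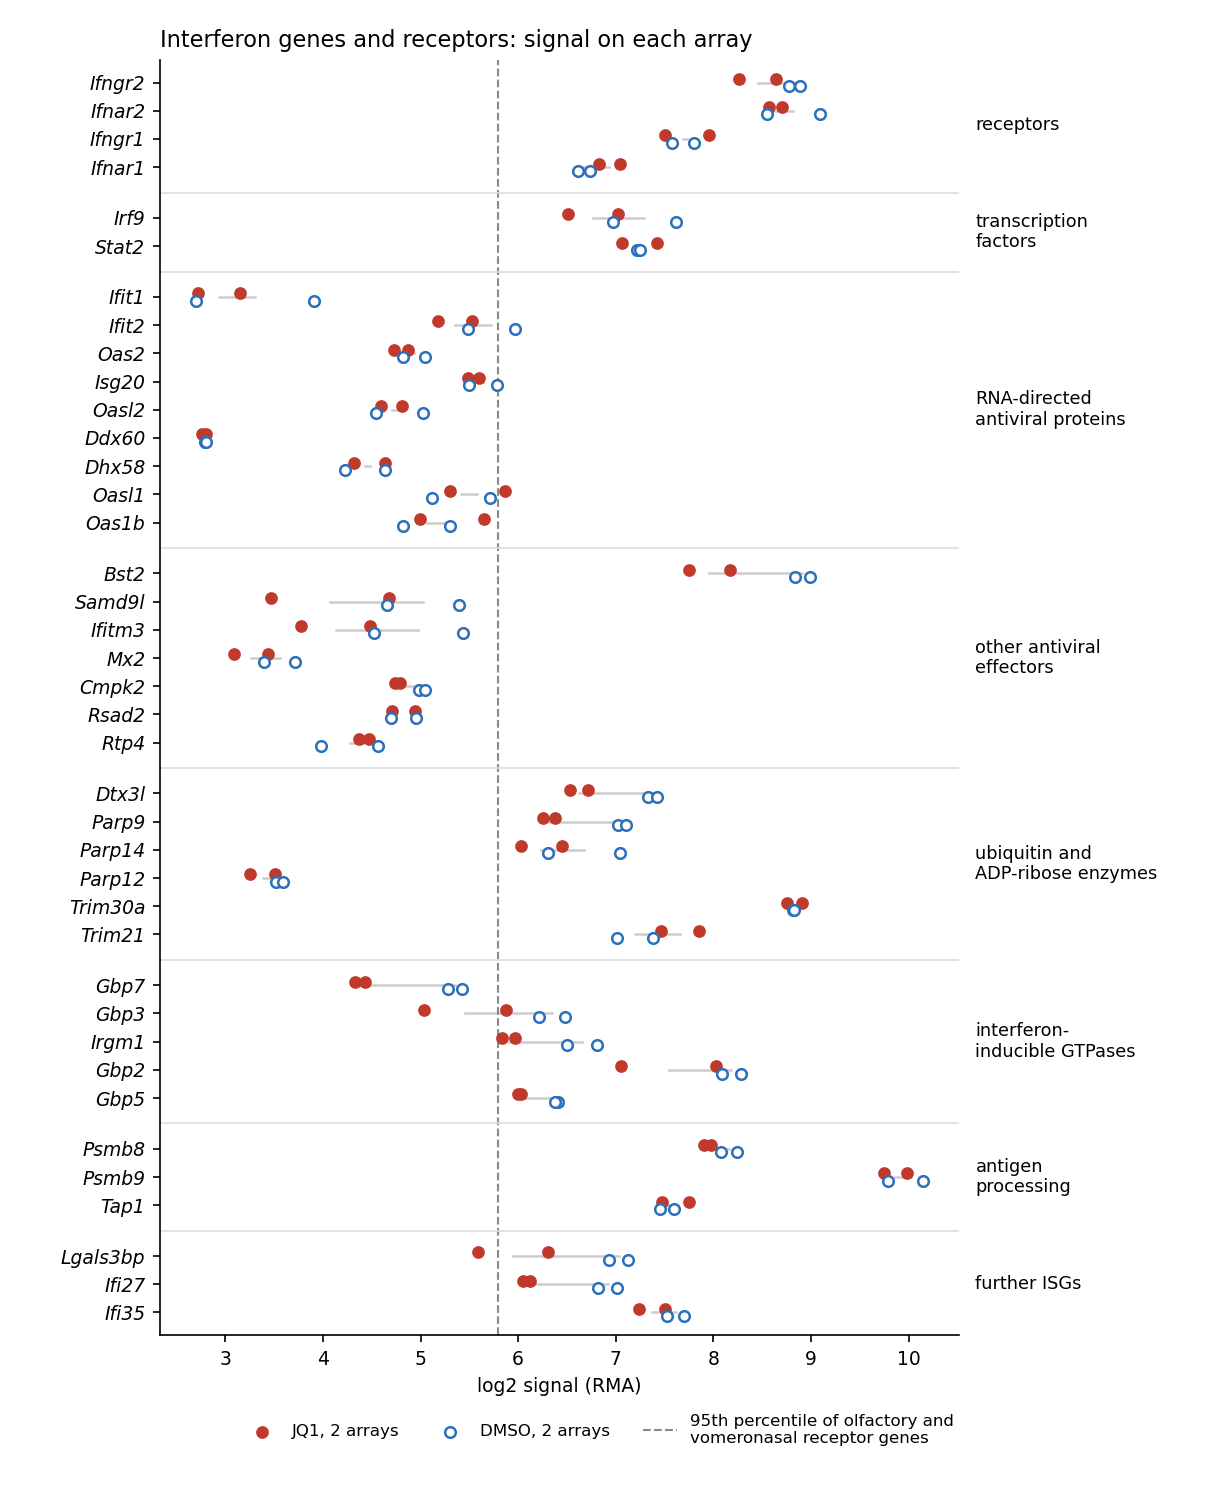
Log2 signal of each of the 39 genes on the 2 JQ1 arrays (filled points) and the 2 DMSO arrays (open points), by role, with a grey line between the group means. The dashed line is the background reference of 5.80, and all 9 RNA-directed antiviral genes have their mean over the arrays to its left.

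The deposited values carry no detection calls, so brightness was judged against 800 olfactory and vomeronasal receptor genes, whose 95th percentile of 5.80 served as a background reference. That reference was chosen with earlier results known. By their mean over the 4 arrays, 17 of the 39 genes lay under it and 22 above it. The median mean of the 39 genes was 6.28, against 6.02 for all genes. Of the 9 lower genes, Gbp7 had both group means under the reference and Gbp3 had its JQ1 mean under it. In whole populations, fewer cells of a type and less RNA per cell cannot be told apart.

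The 4 receptor genes were all above the background reference. None was lower or higher at the unadjusted threshold, against 8.26% and 1.72% of all genes. Ifngr2, the signalling chain of the interferon-γ receptor, had log2 signals of 8.64 and 8.27 on the JQ1 arrays, against 8.88 and 8.78 on the DMSO arrays, a change of -0.38 (SE 0.18, 95% interval -0.83 to 0.080). Its JQ1 arrays did not overlap its DMSO arrays. Ifngr1, the ligand-binding chain, was at 7.50 and 7.95 with JQ1, against 7.57 and 7.81 with DMSO, a change of 0.040 (interval -0.48 to 0.56), and the groups overlapped. The difference between the changes of the 2 chains was not tested.

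Ifnar1, which pairs with Ifnar2 for type I interferons, had signals of 6.83 and 7.04 with JQ1, against 6.74 and 6.61 with DMSO, a change of 0.26 (SE 0.16, interval -0.14 to 0.66). Its JQ1 arrays were the higher ones without overlap. Ifnar2 was at 8.70 and 8.57 with JQ1, against 8.55 and 9.09 with DMSO, a change of -0.19 (interval -0.73 to 0.36). The spread of Ifnar2 came from the DMSO arrays, and the JQ1 arrays lay between them. Ifnar1 and Ifngr2 are neighbours on chromosome 16 and had changes of opposite sign.

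Of the factor that type I interferons activate, Stat2 and Irf9 are given here. Stat2 was at 7.07 and 7.43 with JQ1, against 7.22 and 7.25 with DMSO, a change of 0.013 (interval -0.43 to 0.46). Irf9, the DNA-binding partner, was at 7.02 and 6.51 with JQ1, against 7.62 and 6.97 with DMSO, a change of -0.53 (SE 0.29, interval -1.25 to 0.19). The replicates of Irf9 were far apart in both groups, with 1 JQ1 array above the lower DMSO array.

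None of the 9 measured RNA-directed antiviral genes was lower or higher at the unadjusted threshold, against 8.26% and 1.72% of all genes. At such shares no result about this group is read from a count of 0 in 9. All 9 overlapped between the groups, whereas 31.4% of all genes lay apart downward and 10.0% upward. All 9 had a mean under the background reference. They had a median change of -0.076 and ranged from -0.37 to 0.26. Ifit1, whose product binds foreign RNA, was at 2.72 and 3.15 with JQ1, against 2.70 and 3.91 with DMSO. Ifit2, of the same family, was at 5.53 and 5.18 with JQ1, against 5.97 and 5.48 with DMSO. The changes of both were -0.37, with replicates of Ifit1 far apart in the DMSO group (SE 0.41 for Ifit1 and 0.23 for Ifit2).

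Oas1b, an oligoadenylate synthetase gene, was at 5.65 and 5.00 with JQ1, against 5.30 and 4.82 with DMSO, a change of 0.26 (interval -0.45 to 0.97). Oas2, Oasl1 and Oasl2 of the same family had changes of -0.14, 0.17 and -0.076. That of Oasl2 turned to 0.0016 after a further quantile normalization and 0.042 after centring. The RNA exonuclease gene Isg20 was at -0.095 (0.0064 and 0.022 under the same scalings), the helicase gene Ddx60 at -0.013 (0.10 after centring), and Dhx58, which encodes the RNA sensor LGP2, at 0.051. The means of Ddx60 (2.79) and Ifit1 (3.12) lay even under the median of the olfactory and vomeronasal receptor genes (3.61). At signals under the background reference, differences between the groups may not be detectable on these arrays.

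Among 7 other antiviral effector genes, Bst2 was lower at the unadjusted threshold (14.3%, against 8.26% of all genes). Bst2 (Entrez gene 69550) encodes tetherin, a membrane protein that holds budding virus particles at the cell surface. It had log2 signals of 7.75 and 8.17 on the JQ1 arrays, against 8.99 and 8.83 on the DMSO arrays. Both JQ1 arrays were the lower ones, the change was -0.95 (SE 0.19, interval -1.44 to -0.46), and the signal was 1.94-fold lower (limma adjusted p = 0.283). Its mean was 7.96 ± 0.30 in the JQ1 group, against 8.91 ± 0.11 in the DMSO group (SD, n = 2), well above the background reference.

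Samd9l, an antiviral translation inhibitor, was at 3.46 and 4.68 with JQ1, against 4.66 and 5.39 with DMSO, a change of -0.95 (SE 0.45). Ifitm3, which blocks the fusion of viruses in endosomes, was at 3.77 and 4.48 with JQ1, against 5.43 and 4.52 with DMSO, a change of -0.85 (SE 0.38). These changes were about as large as that of Bst2, but the replicates were farther apart and the signals lay under the background reference. The nucleotide kinase gene Cmpk2 (-0.25), Mx2 (-0.29), Rtp4 (0.15) and Rsad2, which encodes viperin (-0.0031), had signals under the reference too. Cmpk2 was the member of these 4 with no overlap of the groups. The change of Rsad2 was above 0 under each of the 3 further scalings, from 0.065 to 0.11.

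Of 6 measured enzymes that attach ubiquitin or ADP-ribose, the partners Parp9 and Dtx3l were lower at the unadjusted threshold and by nearly the same amount. That is 33.3% of the 6, against 8.26% of all genes. Dtx3l (Entrez gene 209200), a ubiquitin ligase, and Parp9 (Entrez gene 80285), which forms a complex with it, are neighbours on chromosome 16 and their RefSeq annotations overlap at the ends. Dtx3l had signals of 6.53 and 6.72 with JQ1, against 7.33 and 7.42 with DMSO, a change of -0.75 (SE 0.15, interval -1.14 to -0.37, limma adjusted p = 0.280). Parp9 had signals of 6.25 and 6.37 with JQ1, against 7.02 and 7.11 with DMSO, a change of -0.75 (SE 0.15, interval -1.12 to -0.38, limma adjusted p = 0.271). On both JQ1 arrays the 2 genes were lower than on both DMSO arrays, by 1.69-fold for Dtx3l and 1.68-fold for Parp9.

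Parp14, the next listed gene beside Dtx3l on chromosome 16, was at 6.45 and 6.02 with JQ1, against 6.31 and 7.04 with DMSO, a change of -0.44 (SE 0.29) with overlapping groups. Trim21, a ubiquitin ligase that recognises antibody-coated viruses, had the highest change of the 39 genes. It was at 7.47 and 7.85 with JQ1, against 7.01 and 7.38 with DMSO, a change of 0.46 (SE 0.21, interval -0.075 to 1.00, limma adjusted p = 0.545). The JQ1 arrays of Trim21 lay above the DMSO arrays without overlap. Trim30a, another ligase gene of the Trim family, was at 8.75 and 8.91 with JQ1, against 8.82 and 8.82 with DMSO, a change of 0.0085 (interval -0.36 to 0.38). Parp12 (-0.17) lay under the background reference.

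As deposited, all 5 measured interferon-inducible GTPase genes had both JQ1 signals below both DMSO signals, though Gbp2 overlapped after centring. Of the 5, 4 were lower at the unadjusted threshold, namely Gbp7, Gbp3, Irgm1 and Gbp5. Of all genes, 31.4% lay apart in that direction and 8.26% were lower at the threshold. Under each of the 3 further scalings Gbp3 and Gbp5 no longer reached it, which left 2 of 5, against 4.57% to 5.42% of all genes. The deposited changes of the 5 genes ranged from -0.97 to -0.38, with a median of -0.75. Gbp2, Gbp3, Gbp5 and Gbp7 encode guanylate-binding proteins and follow each other on chromosome 3, and Irgm1 encodes a regulator of the immunity-related GTPases on chromosome 11. The genes of both families resemble each other in sequence, so probes of a row may also read a relative, and the 5 values are not independent. The other 5 listed GTPase genes stood in rows naming several genes.

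**Figure D2:**
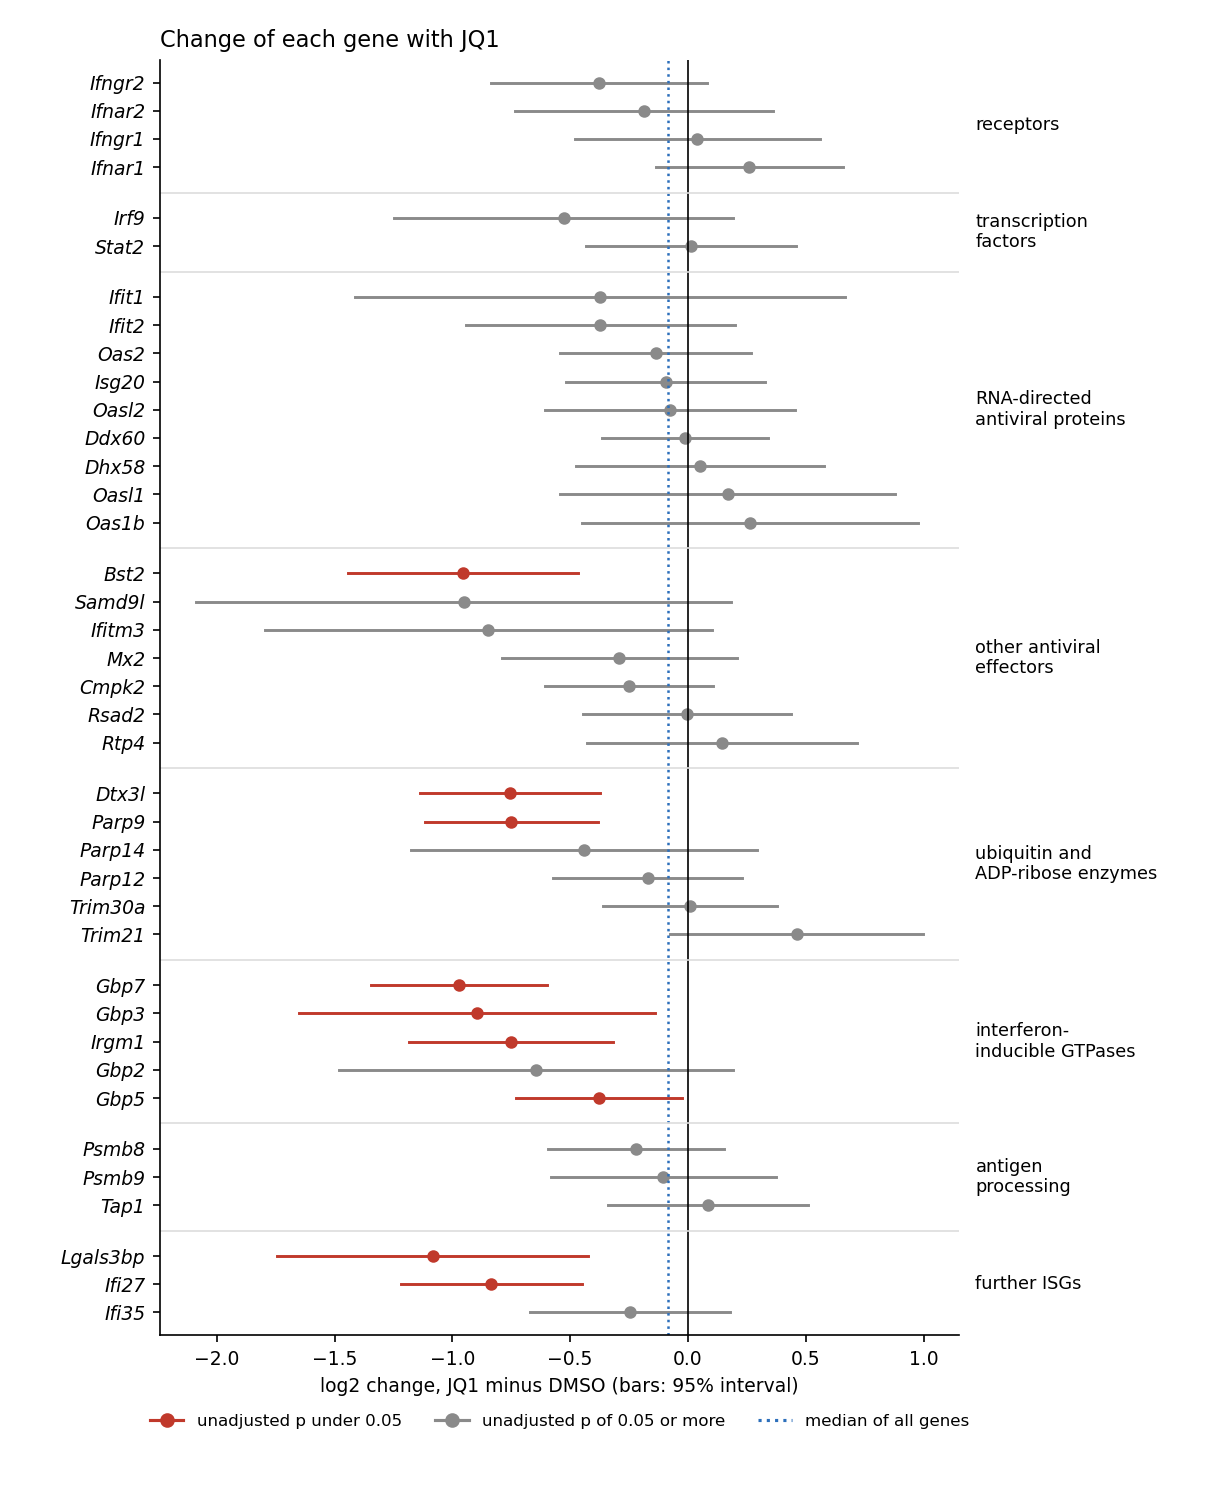
Log2 change (JQ1 minus DMSO) of each of the 39 genes with its 95% interval, by role; red marks the 9 genes at an unadjusted p below 0.05 and the dotted line the median of all genes at -0.086. Red points stand among the GTPases (4 of 5), the ubiquitin and ADP-ribose enzymes (2 of 6), the other effectors (1 of 7) and the further interferon-stimulated genes (2 of 3). Of all genes, 8.26% were lower at that threshold.

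The promoters of interferon targets carry the elements named above, so the windows of the 5 GTPase genes and of Bst2 are shown with that of Trim30a, a gene with nearly equal signals in both groups. The sequences are RefSeq windows of GRCm38.p6, 250 bases up to the annotated start, written 5′ to 3′ on the strand of the gene. Capitals mark matches on either strand to GAAA, any 2 bases and GAAA again, the core of an interferon-stimulated response element (ISRE).
Gbp7, chr3:142530086-142530335, plus strand: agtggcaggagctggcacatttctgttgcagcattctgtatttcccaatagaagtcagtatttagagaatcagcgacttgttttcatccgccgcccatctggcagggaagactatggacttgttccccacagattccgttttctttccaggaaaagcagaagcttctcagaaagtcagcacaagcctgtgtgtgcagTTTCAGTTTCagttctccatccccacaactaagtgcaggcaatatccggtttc
Gbp3, chr3:142559794-142560043, plus strand: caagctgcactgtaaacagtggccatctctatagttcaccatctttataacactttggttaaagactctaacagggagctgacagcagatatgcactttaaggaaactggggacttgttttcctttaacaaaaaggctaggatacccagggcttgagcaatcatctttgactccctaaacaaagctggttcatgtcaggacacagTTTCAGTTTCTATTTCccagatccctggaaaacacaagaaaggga
Gbp2, chr3:142620413-142620662, plus strand: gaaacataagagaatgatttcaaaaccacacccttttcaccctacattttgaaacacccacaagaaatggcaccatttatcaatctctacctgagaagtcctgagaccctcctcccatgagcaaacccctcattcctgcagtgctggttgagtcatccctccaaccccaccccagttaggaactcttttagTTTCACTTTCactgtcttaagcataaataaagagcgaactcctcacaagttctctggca
Gbp5, chr3:142496684-142496933, plus strand: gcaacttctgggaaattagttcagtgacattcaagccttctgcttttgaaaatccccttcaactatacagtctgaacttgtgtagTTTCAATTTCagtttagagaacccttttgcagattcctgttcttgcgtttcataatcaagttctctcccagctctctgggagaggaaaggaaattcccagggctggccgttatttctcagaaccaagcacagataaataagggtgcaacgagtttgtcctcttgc
Irgm1, chr11:48871421-48871670, minus strand: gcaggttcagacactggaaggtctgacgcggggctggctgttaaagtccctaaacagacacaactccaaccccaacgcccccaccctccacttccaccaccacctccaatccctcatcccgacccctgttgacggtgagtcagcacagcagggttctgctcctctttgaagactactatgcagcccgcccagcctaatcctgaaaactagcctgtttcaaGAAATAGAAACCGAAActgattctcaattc
Bst2, chr8:71537473-71537722, minus strand: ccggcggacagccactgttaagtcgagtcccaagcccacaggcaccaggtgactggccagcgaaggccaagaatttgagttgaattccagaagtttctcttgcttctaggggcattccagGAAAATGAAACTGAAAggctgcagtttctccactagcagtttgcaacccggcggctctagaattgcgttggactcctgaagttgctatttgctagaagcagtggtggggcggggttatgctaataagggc
Trim30a, chr7:104465194-104465443, minus strand: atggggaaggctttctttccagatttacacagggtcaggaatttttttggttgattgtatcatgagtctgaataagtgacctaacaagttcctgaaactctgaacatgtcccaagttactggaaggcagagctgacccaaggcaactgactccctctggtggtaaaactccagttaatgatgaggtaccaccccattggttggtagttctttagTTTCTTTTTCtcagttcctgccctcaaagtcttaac

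In these windows the match of Gbp7 began 53 bases before the start, those of Gbp3 45 and 39 bases before it, and that of Gbp2 59 bases before it. The match of Gbp5 began 165 bases before the start, those of Irgm1 30 and 24 bases before it, and those of Bst2 130 and 124 bases before it. The match of Trim30a shown here began 36 bases before the start, in a gene whose signals hardly differed. Trim30a was picked by name and only windows with a match were printed, so the presence of this match was settled beforehand. Over the full windows of 300 bases (250 before and 50 after the start), 13 of 31 listed genes with a window held this ISRE core (41.9%), against 3.99% of 27025 genes. Such matches were in 5 of the 7 lower genes with a window (71.4%) and in 8 of the 24 other genes with one (33.3%). The 5 were Gbp7, Gbp3, Gbp5, Irgm1 and Bst2, all but Bst2 being GTPase genes that resemble each other. Gbp3 and Gbp5 were no longer among the lower genes under the further scalings, and the difference between these shares was not tested.

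The core of a gamma-activated sequence, TTCNNNGAA, was in 10 of the 31 genes (32.3%), against 9.55% of all genes. It stood in Gbp7, Gbp5 and Bst2 among the 7 lower genes, and in 7 of the 24 others. In Bst2 and Ifitm3 it overlapped an ISRE core. The windows of Lgals3bp and Dtx3l held no ISRE core, and those of Ifi27 and Parp9 were not used here. A match is a run of letters and was not tested as a binding site.

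Gbp7 (Entrez gene 229900) had log2 signals of 4.43 and 4.33 on the JQ1 arrays, against 5.42 and 5.28 on the DMSO arrays, a 1.96-fold lower signal (change -0.97, SE 0.15, interval -1.35 to -0.60, limma adjusted p = 0.213). Its replicates were close in both groups, but all 4 signals lay under the background reference. Gbp3 (Entrez gene 55932) was at 5.03 and 5.87 with JQ1, against 6.22 and 6.48 with DMSO, a change of -0.90 (SE 0.30, interval -1.65 to -0.14). JQ1 replicate 1 was the low array for Gbp3, and without it the change was -0.48.

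Irgm1 (Entrez gene 15944) was at 5.97 and 5.83 with JQ1, against 6.50 and 6.81 with DMSO, a change of -0.75 (SE 0.17, interval -1.18 to -0.32, limma adjusted p = 0.332). Gbp5 (Entrez gene 229898) was at 6.00 and 6.03 with JQ1, against 6.40 and 6.38 with DMSO, a change of -0.38 (SE 0.14, interval -0.73 to -0.027). The difference of Gbp5 was the smallest of the 9 but its replicates were the closest. Gbp2 was at 7.05 and 8.03 with JQ1, against 8.28 and 8.09 with DMSO, a change of -0.64 (SE 0.33, interval -1.48 to 0.19). That change came mostly from JQ1 replicate 1, and without it the change was -0.16.

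The 3 measured antigen-processing genes did not reach the unadjusted threshold in either direction, against 8.26% of all genes lower and 1.72% higher. Psmb8 and Psmb9 encode catalytic subunits of the immunoproteasome and Tap1 a subunit of the peptide transporter, and the 3 genes lie side by side on chromosome 17. Psmb9 was at 9.75 and 9.98 with JQ1, against 10.15 and 9.79 with DMSO, a change of -0.10 (interval -0.58 to 0.37) that turned to values from 0.013 to 0.15 under the 3 further scalings. Psmb8 was at 7.91 and 7.97 with JQ1, against 8.24 and 8.08 with DMSO, a change of -0.22 (interval -0.59 to 0.15), with no overlap of the groups. Tap1 was at 7.47 and 7.76 with JQ1, against 7.46 and 7.60 with DMSO, a change of 0.086 (interval -0.34 to 0.51). Their intervals do not reach the changes measured for Bst2 or Gbp7. The interval of Bst2 (-1.44 to -0.46) does overlap those of Psmb8 and Psmb9, and differences between genes were not tested.

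Of the 3 remaining genes, Lgals3bp and Ifi27 were lower at the unadjusted threshold (66.7%, against 8.26% of all genes). Lgals3bp had the largest difference of the 39 genes. Lgals3bp (Entrez gene 19039), a secreted glycoprotein that binds galectins, had signals of 6.30 and 5.59 with JQ1, against 6.93 and 7.13 with DMSO, 2.12-fold lower (change -1.08, SE 0.26, interval -1.74 to -0.42, limma adjusted p = 0.3495). JQ1 replicate 2 was the lower array, and without it the change was -0.73. Ifi27 (Entrez gene 52668), a small membrane protein gene, was at 6.05 and 6.12 with JQ1, against 7.02 and 6.82 with DMSO, 1.78-fold lower (change -0.84, SE 0.15, interval -1.22 to -0.45, limma adjusted p = 0.261). Both groups were tight and did not overlap. Ifi35 was at 7.50 and 7.23 with JQ1, against 7.70 and 7.52 with DMSO, a change of -0.25 (SE 0.17).

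**Figure D3:**
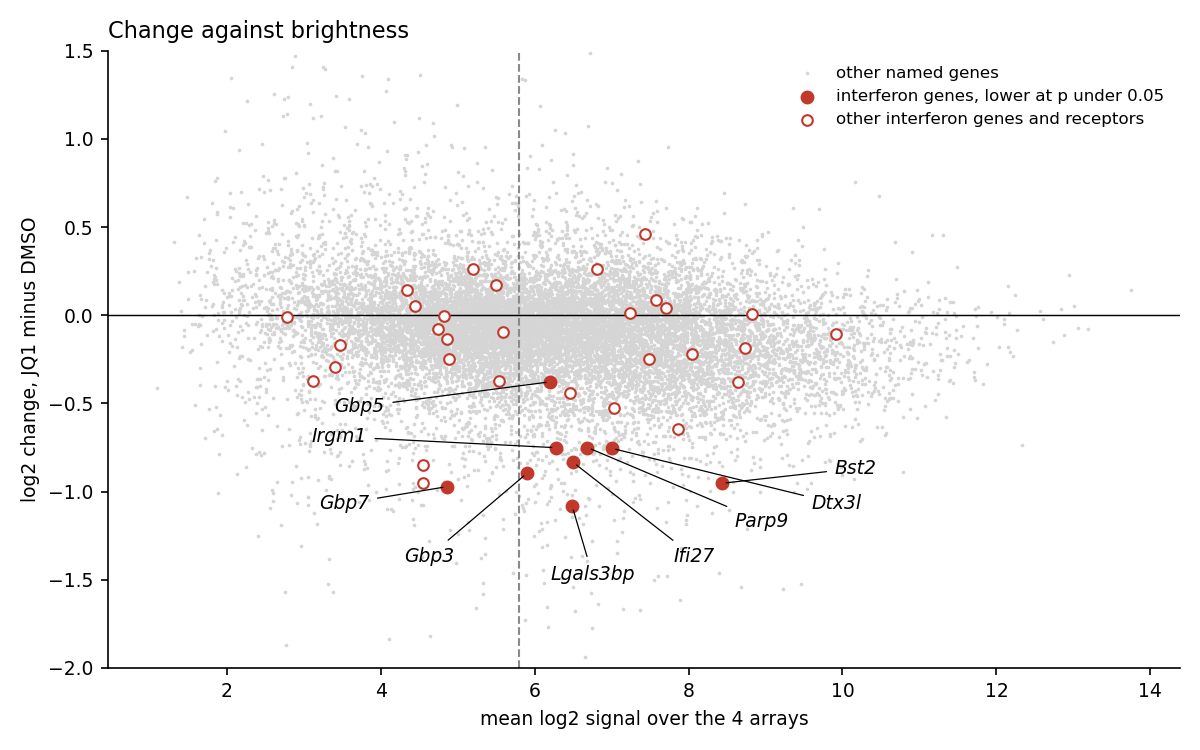
Log2 change (JQ1 minus DMSO) against the mean log2 signal over the 4 arrays for the 39 interferon genes (red) and all other named genes (grey; 17 genes lie outside the plotted range). The 9 lower genes (filled) lie between means of 4.86 and 8.43, with 1 of them, Gbp7, left of the dashed background reference of 5.80.

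The scaling of the arrays bears on these values, because most genes of the deposited table had lower signals with JQ1. Centring each array on its median, a further quantile normalization and cyclic loess thus took the median of all genes to just above 0. Of all genes at an unadjusted p below 0.05, 54.3%, 55.4% and 59.6% were then lower, against 82.8% as deposited. Under these scalings 7 of the 39 genes (17.9%) were lower at the unadjusted threshold, against 4.57%, 5.09% and 5.42% of all genes. The 7 were Lgals3bp, Gbp7, Bst2, Ifi27, Dtx3l, Irgm1 and Parp9 each time, with Gbp3 and Gbp5 no longer among them. Trim21 was then higher at that threshold under all 3, from 0.58 to 0.60, and Ifnar1 under quantile normalization and cyclic loess (0.36 to 0.38 over the 3 scalings). Of all genes, 3.85%, 4.10% and 3.67% were higher under the 3 scalings. With genes under the 25th percentile of mean signal left out, 8 of 26 members were lower (30.8%), against 10.8% of the genes kept, and above the median 7 of 21 (33.3%), against 14.1%.

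**Figure D4:**
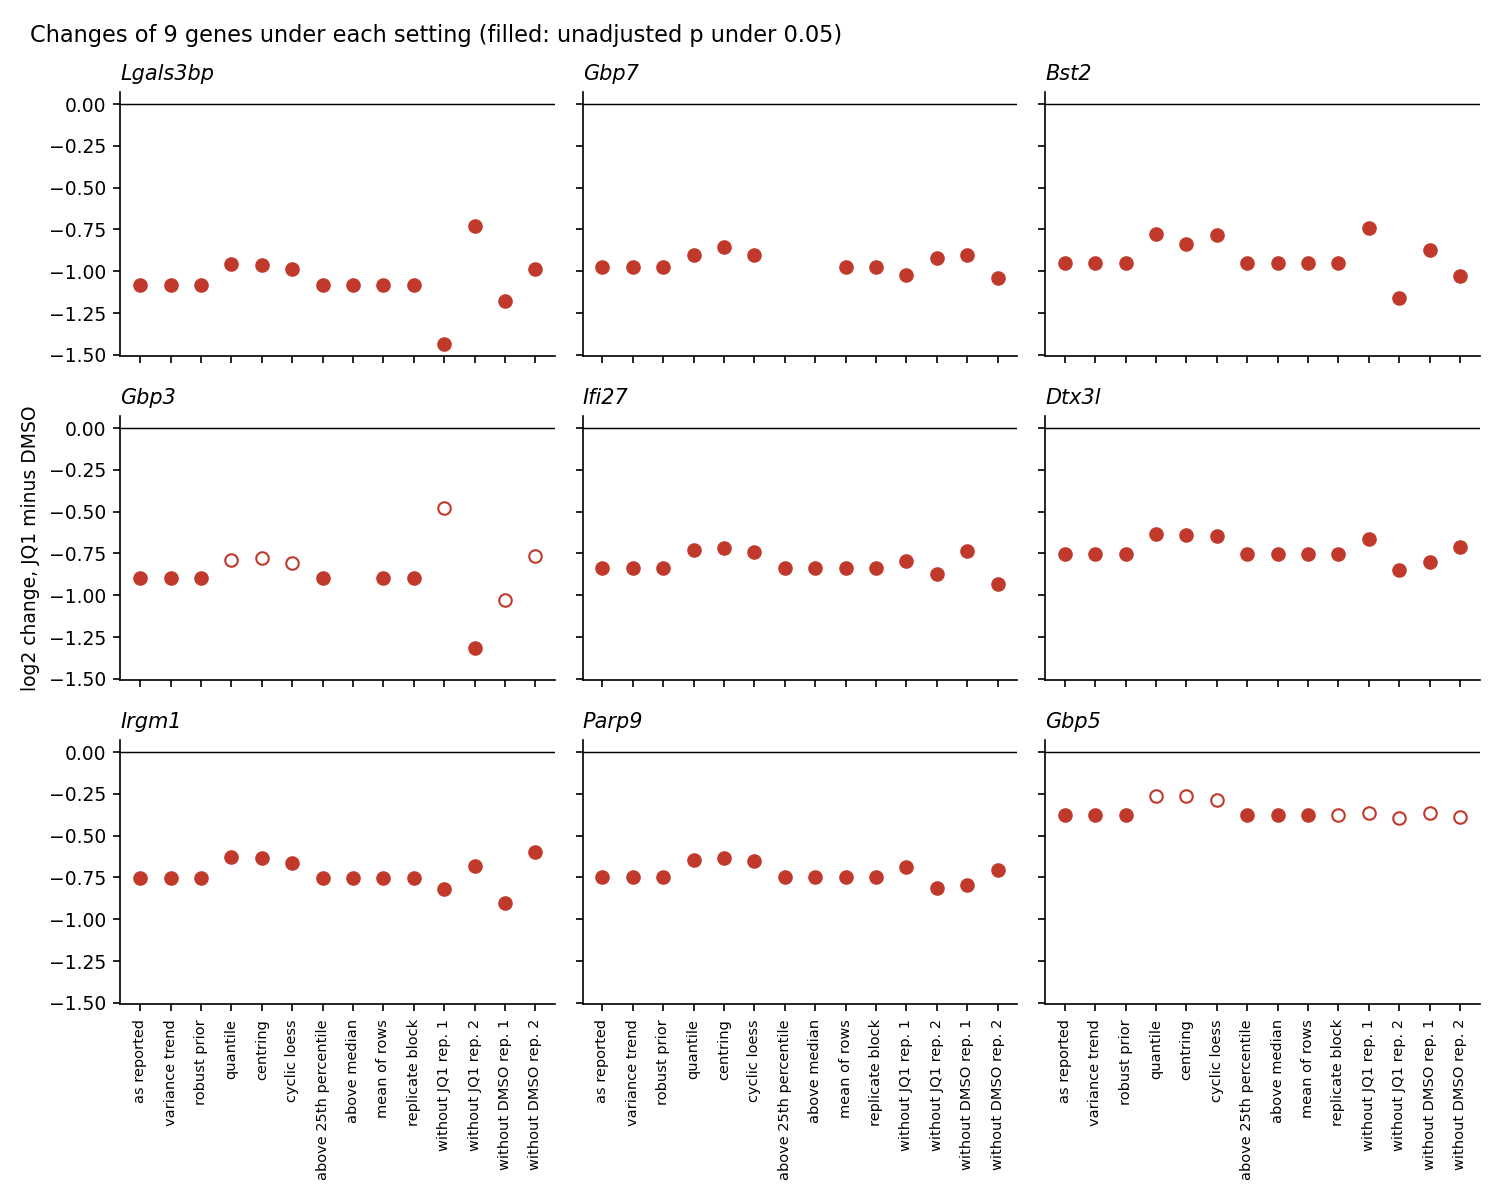
Log2 change (JQ1 minus DMSO) of the 9 lower genes as reported and under each of 13 other settings, filled where the unadjusted limma p is below 0.05; a missing point means that a filter on brightness removed the gene. All points lie below 0, and open points occur for Gbp3 and Gbp5.

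Other genes of the interferon pathway were taken from 5 lists, of which 95 of 141 genes were measured. Of these, 11 were lower at the unadjusted threshold (11.6%, against 8.26% of all genes) and 2 were higher (2.11%, against 1.72%). No gene of the lists passed with limma's adjusted p. The median change of the 95 genes was -0.18.

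None of 9 measured ligand genes reached the unadjusted threshold, against 8.26% of all genes lower and 1.72% higher. Of the 9, 7 had means under the background reference. Ifng, which encodes interferon-γ, was at 6.48 and 5.40 with JQ1, against 7.11 and 6.16 with DMSO, a change of -0.70 (SE 0.46, interval -1.84 to 0.45) with overlapping groups. Replicate 2 was the lower array for Ifng in both groups, and within each number the JQ1 array was below the DMSO array. Ifng missed the unadjusted threshold as reported but passed it with the replicate number as a block, and also without JQ1 replicate 1 (-1.23), and no call is made from these values.

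Among 20 genes of receptor signalling and its feedback, Irf8 was lower and Cish higher at the unadjusted threshold. That is 5.0% in each direction, against 8.26% of all genes lower and 1.72% higher. Irf8, a transcription factor of the interferon regulatory family, was at 7.27 and 7.41 with JQ1, against 7.98 and 8.07 with DMSO, a change of -0.68 (SE 0.15). Cish, a feedback inhibitor of cytokine receptors, was at 8.43 and 8.62 with JQ1, against 8.07 and 8.09 with DMSO, a change of 0.44 (SE 0.15), and no longer reached the threshold without JQ1 replicate 2 or either DMSO array. The receptor kinases had small changes, with Jak1 at 0.052, Jak2 at 0.15 and Tyk2 at -0.10 (0.0093 after quantile normalization and 0.013 after centring).

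Irf1, a transcription factor induced by interferon-γ, was at 6.87 and 6.91 with JQ1, against 6.68 and 6.64 with DMSO, a change of 0.23 (SE 0.14), and it reached the threshold, as Jak2 did, after quantile normalization and cyclic loess. Both JQ1 arrays of Irf1 thus lay above both DMSO arrays, as for 10.0% of all genes. Differences between Irf1 and other interferon-γ targets were not tested. Irf7, an amplifier of type I interferon responses, was at 0.24 with means under the background reference, Socs1, an inhibitor of the receptor kinases, at 0.061 and Socs3 at 0.33 (SE 0.32).

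Of 37 further interferon-stimulated genes, 7 were lower and 0 higher at the unadjusted limma threshold, with a median change of -0.23. That is 18.9% lower, against 8.26% of all genes, and 1.72% of all genes were higher. Ly6e, a lipid-anchored surface protein, was at 8.52 and 8.87 with JQ1, against 10.39 and 10.05 with DMSO, a change of -1.53 (SE 0.20, limma adjusted p = 0.212). Nmi, the binding partner of IFI35, was at 6.62 and 6.80 with JQ1, against 7.42 and 7.39 with DMSO, a change of -0.69 (SE 0.15). The RNA-editing enzyme gene Adar had a change of -0.52 (SE 0.15) with means above the background reference. Ifi27l2a, a relative of Ifi27, was at 7.95 and 7.88 with JQ1, against 8.13 and 7.73 with DMSO, a change of -0.013 with overlapping groups. Slfn8 (-0.72), Casp1 (-0.51), Tdrd7 (-0.38) and Ifi202b (-0.52) were lower too, at means over the 4 arrays under the background reference, although the DMSO mean of Slfn8 was at it (5.80). Slfn8 and Casp1 no longer reached the threshold under any of the 3 further scalings, nor Tdrd7 and Ifi202b after centring. Adar, Slfn8, Casp1, Tdrd7 and Ifi202b each lost it with at least 1 array left out.

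Of 16 genes that sense nucleic acids upstream of interferon, Sting1, the adaptor for cytosolic DNA, was at 6.69 and 7.27 with JQ1, against 8.53 and 8.39 with DMSO, a change of -1.48 (SE 0.23). The kinase gene Ikbke was higher at the unadjusted threshold, at 0.44 (SE 0.16), except without JQ1 replicate 1 or either DMSO array. Of the 16 genes, 6.25% were lower and 6.25% higher at it, against 8.26% and 1.72% of all genes. Among 13 measured genes of antigen presentation all 13 changes were below 0 as deposited, against 66.2% of all genes, with a median of -0.35. Those of Tap2 (-0.024), B2m (-0.070) and Psmb10 (-0.091) were the nearest to 0, and centring, which shifts all genes alike, puts them above it. In the class II pathway 2 genes, H2-DMa (-0.72, SE 0.14) and H2-Ab1 (-0.45, SE 0.14), were lower at the threshold. They were 15.4% of the 13 genes, against 8.26% of all genes. H2-Ab1 no longer reached it after centring (-0.33), nor when any array but DMSO replicate 2 was left out.

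**Figure D5:**
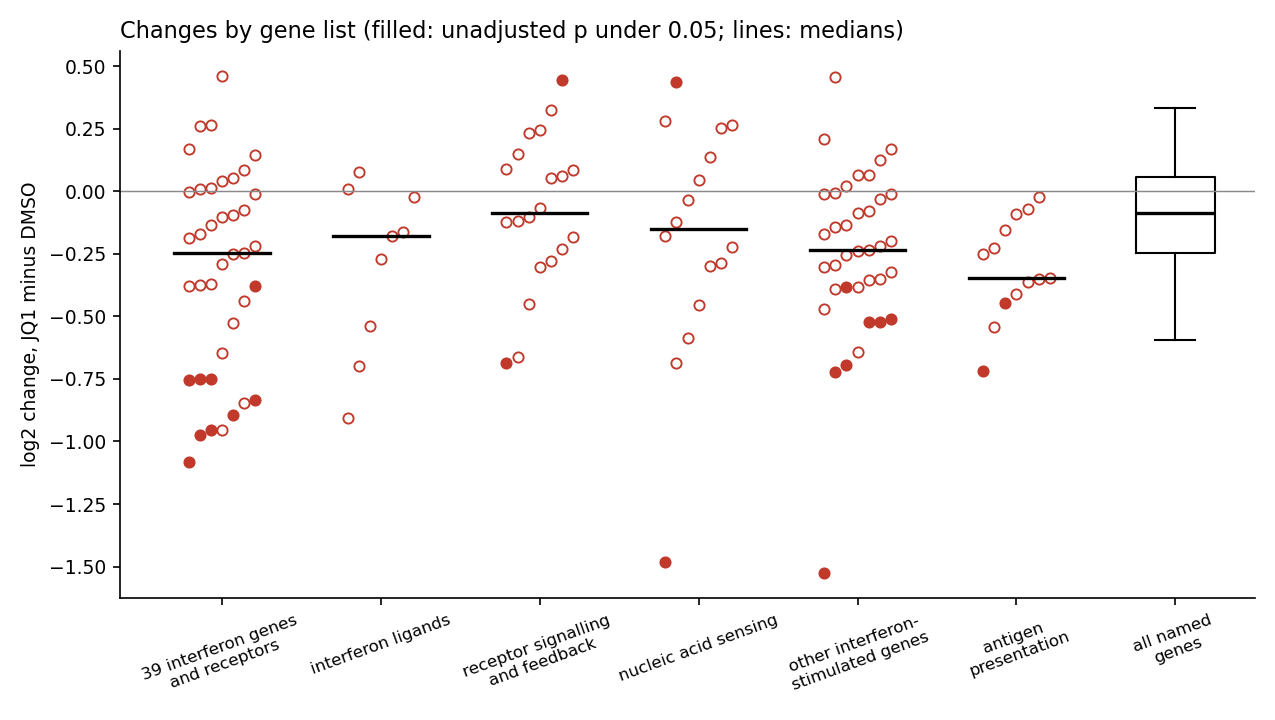
Log2 change (JQ1 minus DMSO) of each gene in the interferon set and in 5 further lists, filled at an unadjusted limma p below 0.05, with medians as lines, beside a box of all named genes (quartiles, whiskers at the 5th and 95th percentiles). Medians of the lists run from -0.35 for antigen presentation to -0.086 for receptor signalling.

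Markers were read for the labelled cell type and for others that the cultures could hold. Of 8 measured CD4 T cell markers, all were above the background reference, and their summed linear signal was 9558 and 10400 on the JQ1 arrays, against 12320 and 10210 on the DMSO arrays. Of these 8, Thy1 (-0.71) was lower at the unadjusted threshold (12.5%, against 8.26% of all genes). All 6 measured TH17 markers were lower at it, against 8.26% of all genes (summed signal 682.9 and 727.1 with JQ1, against 4206 and 3535 with DMSO). None of the 6 passed after adjustment (lowest limma adjusted p 0.090).

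Bst2, the class II genes and several interferon-stimulated genes are also expressed by B cells and by dendritic cells. Of 5 measured B cell markers, 4 had means under the background reference, and their summed signal was 220.5 and 196.6 with JQ1, against 254.6 and 251.9 with DMSO. Of 7 dendritic cell markers, 6 were under it, with sums of 302.7 and 292.7 with JQ1, against 320.2 and 275.6 with DMSO. Of 6 macrophage and monocyte markers, 5 were under it, with sums of 236.9 and 216.9 with JQ1, against 251.0 and 229.5 with DMSO.

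The sums of 3 CD8 T cell markers were 158.1 and 193.1 with JQ1, against 244.5 and 237.2 with DMSO, with 1 of the 3 under the background reference. Those of 4 natural killer markers were 97.05 and 104.8 with JQ1, against 191.4 and 166.8 with DMSO, with 3 of the 4 under it. That difference lay mainly in Klrd1 (-1.73), while Ncr1 (-0.091), Eomes (-0.091) and Klre1 (-0.0035) overlapped between the groups. Of the CD8 markers, Cd8a (-0.73) and Cd8b1 (-0.57) were lower on both JQ1 arrays, while Prf1 (-0.11) overlapped. Of the 5 B cell markers, 3 were lower on both JQ1 arrays and 2 overlapped, with Ms4a1 at 0.30. The B cell, CD8 and natural killer sums were lower on both JQ1 arrays, as 31.4% of all single genes were. The part of these cells in the differences of the 9 genes was not tested.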

How the data were processed

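The data are 4 Affymetrix exon arrays, 2 with JQ1 and 2 with DMSO, grouped by title. The deposited log2 values were made by the authors with RMA in Affymetrix Expression Console, per the submitters' processing notes; the sources used here give no versions or settings. The notes name hg19, a human build, so no coordinates of array rows are given. Of 23332 rows, 14996 named 1 gene, 1019 several and 7317 none, and 135 genes had several rows. Symbols were updated by Entrez identifier (14941 rows matched) through RefSeq GRCm38.p6, whose promoter windows matched 31 of the 39 genes.

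limma 3.58.1 (R 4.3.3) fitted all 14860 genes at once with lmFit and eBayes, JQ1 minus DMSO without covariates, with 2 residual and 3.43 prior degrees of freedom. Tests were two-sided at 0.05, before and after Benjamini-Hochberg adjustment. SE and 95% intervals are limma's moderated ones, folds are changes raised from the log2 scale, and marker sums add linear signals. The scripts were tested on simulated data.

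The genes and lists were chosen with earlier results of these data known, so no list was tested. Values per array are given for the receptors, Stat2, Irf9, genes at an unadjusted p below 0.05 and the 3 largest changes of each role, with others where a comparison needed them. Of the other lists, 8 measured genes were named whatever their values, and the rest by that threshold or where a comparison needed them. Alternatives covered scaling, brightness filters, the variance prior, rows per gene, the replicate number and each array left out. Figures used matplotlib 3.10.9 (Python 3.11.15).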

Additional observations from a re-analysis of the deposited data

How the results depend on the processing

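Of the 9 lower genes, 7 (all but Gbp3 and Gbp5) stayed lower at an unadjusted p below 0.05 in limma wherever they had a value: with a variance trend, a robust prior, 3 scalings, 2 filters on brightness, averaged rows per gene, the replicate block, or 1 array left out, its group's lone array being assumed to vary like the others. Both filters removed Gbp7, and that at the median also Gbp3. The number of lower genes was 7 to 11 over these settings. Gbp3 and Gbp5 were lost under each scaling and without any 1 array except JQ1 replicate 2, where Gbp5 alone was lost. No member passed after adjustment (lowest limma adjusted p 0.0717 to 0.6039 over the settings). Over all genes, 1 passed as reported, 3 with the trend, 9 above the 25th percentile of brightness, 50 above the median (Ly6e at 0.0302 and Sting1 at 0.0427 among them), and 0 with the block or any array left out.

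Labels give both groups the replicate numbers 1 and 2, and deviations of same-numbered arrays correlated weakly across genes (Pearson 0.0967, Spearman 0.0874). Such a correlation cannot settle whether same-numbered arrays were paired, and no label says so. With the replicate block 10 members were lower (Irf9 and Samd9l added, Gbp5 lost) and 1 higher, and of the other named genes Ifng was added and Casp1 and Tdrd7 were lost. Higher members, 0 as reported, numbered 2 after quantile normalization, 1 after centring, 2 after cyclic loess, and 0 to 1 with 1 array left out (Trim21 without DMSO replicate 2). The median change of the members, -0.25 as reported, was -0.13 after centring, -0.38 above the median of brightness (21 members left) and -0.28 to -0.16 with 1 array left out, being -0.16 without DMSO replicate 1. The cause was not tested.

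The sign turned after quantile normalization for Isg20 (0.0064), Oasl2 (0.0016), Psmb9 (0.15), Rsad2 (0.070) and Tyk2 (0.0093). After centring it turned for Ddx60 (0.10), Isg20 (0.022), Oasl2 (0.042), Psmb9 (0.013), Rsad2 (0.11) and Tyk2 (0.013). Cyclic loess turned Psmb9 (0.093) and Rsad2 (0.065). Ranges with 1 array left out crossed 0 for Ddx60 (-0.032 to 0.0060), Dhx58 (-0.15 to 0.26), Ifit1 (-0.98 to 0.23), Ifnar2 (-0.46 to 0.083), Ifngr1 (-0.18 to 0.26), Irf7 (-0.00087 to 0.49), Isg20 (-0.24 to 0.048), Jak1 (-0.042 to 0.15), Oas1b (-0.064 to 0.59), Oasl1 (-0.13 to 0.46), Oasl2 (-0.32 to 0.16), Psmb9 (-0.28 to 0.075), Rsad2 (-0.13 to 0.12), Rtp4 (-0.15 to 0.44), Socs1 (-0.062 to 0.19), Socs3 (-0.092 to 0.74), Stat2 (-0.17 to 0.19), Tap1 (-0.054 to 0.23) and Trim30a (-0.069 to 0.086). Of the 39 genes, 22 were lower and 2 higher under all settings, and the sign of 15 differed between settings. The cause was not tested. Differences near or under the background reference are limited by signal, and all differences by 2 arrays a group.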
